A study of Mus musculus with 4 samples.

Results

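Interferon-stimulated genes are the genes that cells switch on when an interferon reaches them. The 42 genes described here were listed by name, and 41 of them have a row in the count tables, which hold 31053 genes. Mx2 was not analysed here. By role they are 4 transcription factors (Irf1, Irf7, Irf9, Stat2), 5 sensors of foreign nucleic acid (Ifih1, Ddx58, Dhx58, Zbp1, Eif2ak2), 5 genes of the OAS family, 4 of the IFIT family, the ISG15 modifier with its protease Usp18, 2 Mx genes, 9 guanylate-binding or immunity-related GTPases, and 11 other effectors such as Bst2, Rsad2 and Ifi27l2a. A set of 16 of them (the IFIT, OAS, Mx and ISG15 genes with Rsad2, Cmpk2 and Irf7) is called the antiviral core below, of which 15 were measured.

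Type I and type III interferons signal through the kinases JAK1 and TYK2 to a complex that holds STAT2 and IRF9 and binds an interferon-stimulated response element (ISRE) in promoters. Interferon gamma, made mainly by T and NK cells, signals through JAK1 and JAK2, and its target promoters carry a gamma-activated site (GAS). IFIT proteins bind viral RNA, OAS enzymes activate RNase L, viperin (Rsad2) blocks the replication of many viruses, tetherin (Bst2) holds budding virus at the cell surface, and the guanylate-binding and immunity-related GTPases attack the vacuoles of intracellular pathogens.

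The cells came from FVB mice (genotype spelled VFB in the labels) on chow with subcutaneous grafts of MycCaP, a cell line from prostate cancer of HiMyc mice. Mice received D-CAN, a peptide that homes to adipose stromal cells (ASC) and is meant to deplete them, or PBS as control. There was 1 library of tumor cells and 1 of stromal/vascular cells from inguinal subcutaneous adipose tissue (SAT) for each treatment, 4 in all, and the sources do not say how many mice each held or their age. Grafted cells carry a Myc transgene, dead cells and red blood cells had been removed, and all libraries share these steps.

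The libraries held 1525 to 2851 cells and 6667064 to 17996284 UMIs (unique molecular identifiers, each marking 1 captured RNA molecule). Each library shared at most 4 cell barcodes with the others. Cells with 200 or more genes were put in a class when they had UMIs of at least 2 of its 8 markers and of at least 2 more than of any other class, which left 201 to 1125 cells of a library ungated. Of the 8 cancer markers, 7 and 6 had a UMI in the cancer-like cells of the control and D-CAN tumors and 4 were found in 10% or more of these cells in each. All 8 fibroblast markers were found in the fibroblast-like cells of both SAT libraries. Mural-like cells of the control tumor held more UMIs of fibroblast markers (6930 CPM) than of mural markers (5813 CPM). Levels are UMIs of a gene per 1 M UMIs of the class (CPM), not divided by length because 3′ libraries tag each molecule once, and the score is the sum over the 41 genes. Intervals are exact 95% intervals that cover counting error only, since 1 library per tissue and treatment leaves the variation between mice unmeasured and allows no test of D-CAN within a tissue. A test of D-CAN across both tissues was not run.

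Many of the listed genes share a promoter motif. RefSeq promoter sequences (GRCm38.p6, from 250 bases before to 50 after a start site) were at hand for 31 of the 42 genes. The ISRE core (GAAA, any 2 bases, GAAA), searched on both strands with overlapping matches kept, occurred in 19 of these 31 (61.3%), against 3.99% of 27025 genes with a promoter. The GAS letters TTCNNNGAA occurred in 9 of the 31 (29.0%), against 9.55% of all. By role, the ISRE letters were in 3 of 3 sensors, 6 of 7 GTPases, 3 of 4 IFIT genes, 2 of 4 OAS genes and 1 of 4 transcription factors (Stat2). A match is a stretch of letters and not a shown binding site. The 170 bases before the start are given for 5 genes that were at least 2-fold higher in the cancer-like cells of the D-CAN tumor, written 5′ to 3′ on the gene's strand, with ISRE matches in capitals.
Isg15, chr4:156200819-156200988, minus strand: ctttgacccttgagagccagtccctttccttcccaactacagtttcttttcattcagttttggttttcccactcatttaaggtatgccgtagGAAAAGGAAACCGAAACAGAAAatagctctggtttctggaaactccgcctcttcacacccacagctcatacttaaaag
Ifit1, chr19:34640719-34640888, plus strand: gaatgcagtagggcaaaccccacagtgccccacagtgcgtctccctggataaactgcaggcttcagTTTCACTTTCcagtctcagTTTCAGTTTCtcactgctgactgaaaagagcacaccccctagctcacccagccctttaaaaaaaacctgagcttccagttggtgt
Ifit3, chr19:34583359-34583528, plus strand: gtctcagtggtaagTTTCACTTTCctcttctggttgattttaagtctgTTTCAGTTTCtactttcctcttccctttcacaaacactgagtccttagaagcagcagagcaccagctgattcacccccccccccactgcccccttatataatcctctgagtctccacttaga
Rsad2, chr12:26456453-26456622, minus strand: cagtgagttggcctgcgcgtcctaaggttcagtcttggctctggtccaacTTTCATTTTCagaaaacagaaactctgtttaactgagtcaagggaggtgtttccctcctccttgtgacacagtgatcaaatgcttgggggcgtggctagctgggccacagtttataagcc
Gbp2, chr3:142620493-142620662, plus strand: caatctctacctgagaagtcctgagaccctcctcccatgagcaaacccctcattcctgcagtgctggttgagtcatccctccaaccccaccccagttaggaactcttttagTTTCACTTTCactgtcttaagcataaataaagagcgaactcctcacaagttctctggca
Isg15 has 3 overlapping matches that form 1 run ending 56 bases before the start. Ifit1 and Ifit3 have 2 each, the nearer ending 75 and 112 bases before the start. Rsad2 has 1 that ends 110 bases before it, and Gbp2 has 1 that ends 49 bases before it. Neighbouring genes are also common on the list. In the GENCODE vM21 annotation of GRCm38, 19 of the 41 genes lie within 1 Mb of another, in 7 groups, such as Ifit2, Ifit3, Ifit3b and Ifit1 on chromosome 19 from 34550694 to 34650009 and Gbp5, Gbp7, Gbp3 and Gbp2 on chromosome 3 from 142493978 to 142638008.

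In tumors, among classes of at least 20 cells, the listed genes were lowest in cancer-like cells and highest in myeloid-like cells. Smaller classes, some of which stood outside this range, are not ranked. The score was 467 CPM (interval 454 to 481) in cancer-like cells of the control tumor and 735 CPM (716 to 753) in those of the D-CAN tumor. Myeloid-like cells stood at 4518 CPM (4391 to 4648) and 4879.7 CPM (4745 to 5017) in the same libraries. Endothelial-like cells had 3599 CPM (3371 to 3839) and 3912 CPM (3661 to 4176). Fibroblast-like cells had 2896 CPM (2749 to 3048) and 2976 CPM (2844 to 3112). Mural-like cells, of which the D-CAN tumor had only 14, had in the control tumor 2888 CPM (2577 to 3226), an interval that overlaps that of the fibroblast-like cells, whereas the other neighbours in this order did not overlap.

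In SAT, the order of the classes differed between the control and the D-CAN library. The control library ran from myeloid-like cells at 6606 CPM (6236 to 6992) through neutrophil-like cells at 4591 CPM (3800.2 to 5498), fibroblast-like cells at 3851 CPM (3678 to 4030.5), endothelial-like cells at 3126 CPM (3023 to 3232), T or NK-like cells at 2603 CPM (2535 to 2672) and mural-like cells at 2327 CPM (2005 to 2686) to B-like cells at 1472 CPM (1413 to 1534). The intervals of neutrophil-like and fibroblast-like cells overlapped, as did those of T or NK-like and mural-like cells. In the D-CAN library endothelial-like cells were highest among classes of at least 20 cells, at 3143 CPM (3035 to 3254), followed by myeloid-like cells at 2326 CPM (2094 to 2576), T or NK-like cells at 1667 CPM (1620.0 to 1715), fibroblast-like cells at 1607 CPM (1487 to 1734), B-like cells at 887 CPM (844 to 931) and mural-like cells at 757 CPM (632 to 899.9). Here T or NK-like cells overlapped with fibroblast-like cells, and B-like with mural-like cells.

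**Figure D1:**
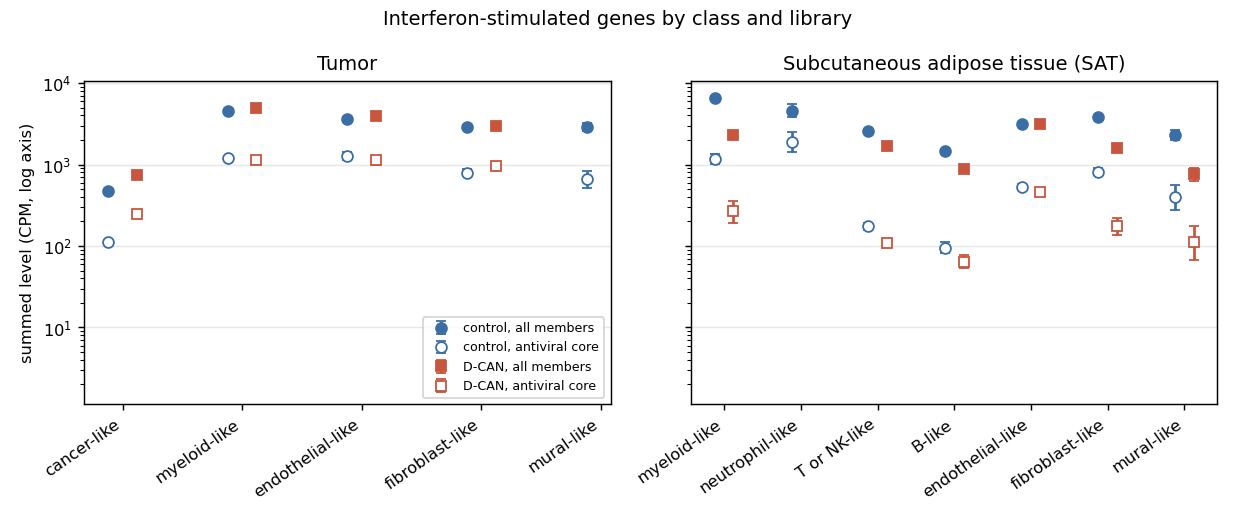
Summed CPM (log axis) of the 41 measured genes (filled) and of the 15 measured core genes (open) in each class with at least 20 cells, for tumor and SAT, control in blue circles and D-CAN in red squares; bars are exact 95% Poisson intervals. In cancer-like cells the D-CAN point lies above the control (735 against 467 CPM), and in SAT each class other than endothelial-like cells lies below it.

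Some leading genes differed between classes, and others, such as Ifi27l2a and AW112010, were shared. In cancer-like cells Bst2 led with 184 CPM in the control and 236 CPM in the D-CAN tumor, followed by Isg15 with 60.8 and 127 CPM, Ifi35 with 47.8 and 56.3 CPM, and Eif2ak2 (the kinase PKR) with 28.5 and 32.1 CPM. In tumor myeloid-like cells Ifi27l2a, an interferon-alpha-inducible gene, held 1654 and 2166 CPM, ahead of Irf7 with 256 and 260.2 CPM. Endothelial-like cells of SAT were led by the GTPase Iigp1 with 295 CPM in the control and 311 CPM in the D-CAN library and by AW112010 with 275 and 333 CPM. The 9 GTPases together held 969.5 and 1037 CPM there, against 24.3 and 45.0 CPM in cancer-like cells of the control and D-CAN tumors. T or NK-like cells of SAT were led by Ifi27l2a (1004 CPM in the control, 453 CPM in the D-CAN library) and AW112010 (473 and 346 CPM), and their core genes were low, at 175 and 109 CPM. The core made up 1284 of 3599 CPM in endothelial-like cells of the control tumor and 529 of 3126 CPM in those of the SAT control.

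**Figure D2:**
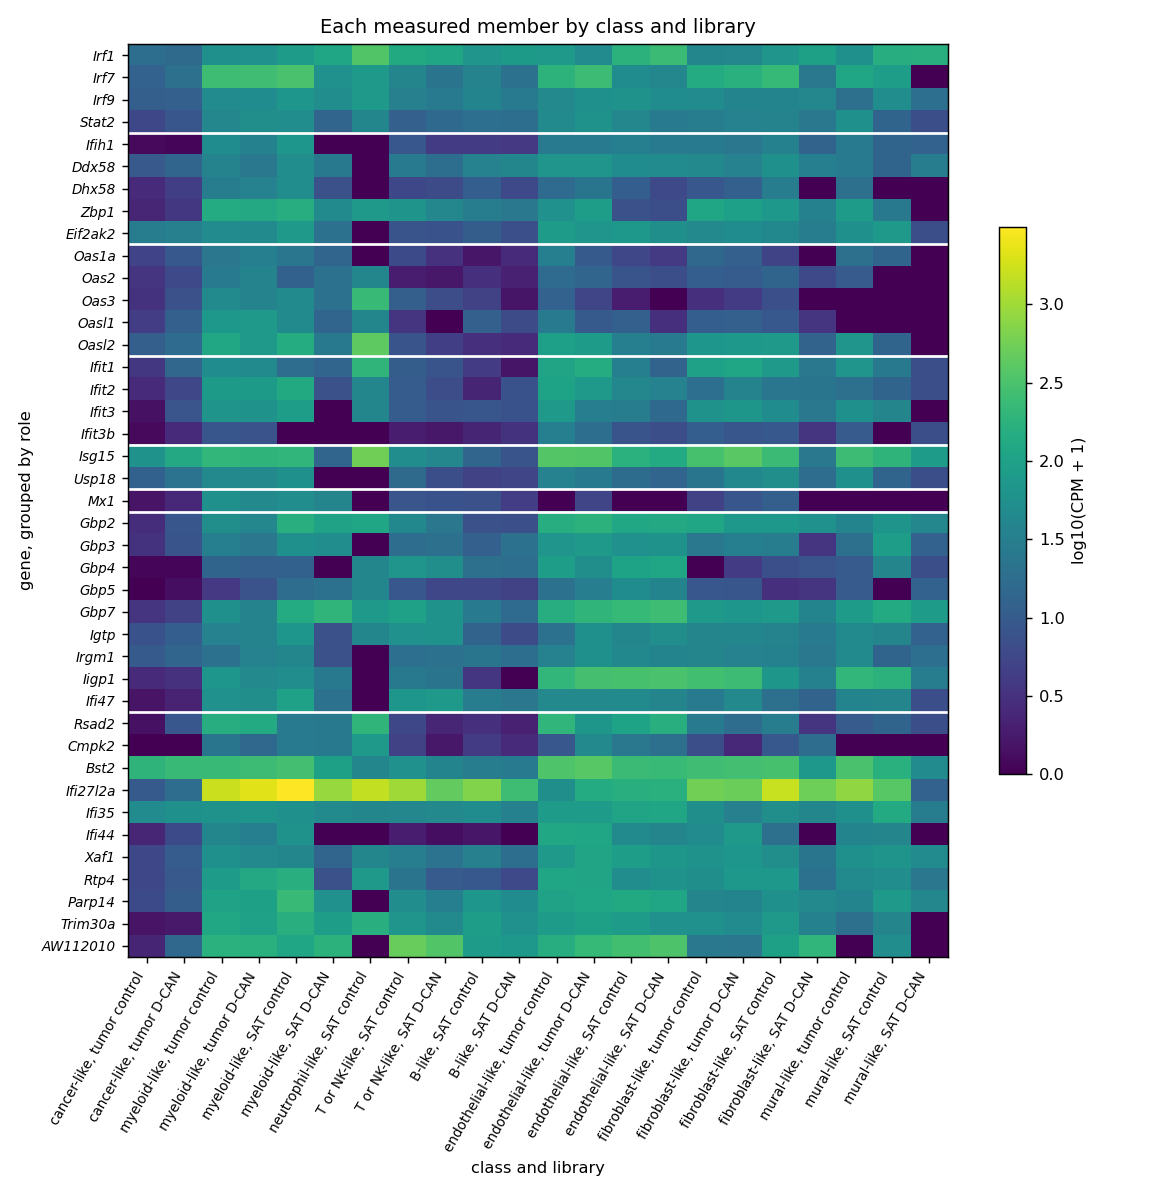
Each of the 41 measured genes (rows, grouped by role and separated by white lines) in each class and library with at least 20 cells (columns), coloured by log10(CPM + 1). Ifi27l2a is bright in myeloid-like, lymphoid and fibroblast-like columns and dark in cancer-like columns (8.87 and 17.0 CPM), where Bst2 and Isg15 are the brightest rows.

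In cancer-like cells the listed genes were higher in the D-CAN tumor than in the control. Of the 41 genes, 33 reached a sum of 20 UMIs in the pair of libraries, and of these 14 were at least 2-fold higher and 0 were at least 2-fold lower, where 0.888% of 10693 tested genes were higher and 0.879% lower by that rule. Ifit2, Ifit3, Rsad2, AW112010, Ifi44, Dhx58 and Gbp2 had under 20 UMIs in the control and reached the limit only with UMIs of the D-CAN tumor. The limit favored higher calls among such genes, so the count is a description. The share over all genes was taken under the same limit. As log2 of D-CAN divided by control, the median was 0.94 for the listed genes and 0.04 for all genes tested. The log2 ratio of the score was 0.65 (0.60 to 0.71) and that of the core 1.15 (1.04 to 1.26), with the core at 112 CPM in the control and 248 CPM in the D-CAN tumor. These are differences between 2 libraries of 826 and 437 cells.

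The IFIT family differed most among the roles, at 4.86 CPM in the control and 26.7 CPM in the D-CAN tumor (log2 ratio 2.46, interval 1.99 to 2.95). Ifit3 had 4 UMIs in the control and 60 UMIs in the D-CAN tumor (log2 ratio 4.11, interval 2.68 to 6.03). Ifit1 had 25 and 110 UMIs (log2 ratio 2.34, 1.70 to 3.03), and Ifit2 had 15 and 37 UMIs. All 3 encode RNA-binding effectors from the cluster on chromosome 19. Of the 220 IFIT UMIs of the D-CAN tumor, 146 were in 5 cells, the top 1% by core UMIs. Without the top 1% of cells in each library, a choice made after the data had been seen, the family stood at 4.72 and 9.08 CPM (log2 ratio 0.94, 0.39 to 1.52), beside 0.91 (0.76 to 1.07) for the ISG15 system and 0.75 (0.48 to 1.03) for the OAS family. The OAS family stood at 22.6 and 46.0 CPM (log2 ratio 1.02, 0.78 to 1.27), with Oasl1 at 31 and 88 UMIs, Oas3 at 21 and 52 UMIs and Oas2 at 23 and 41 UMIs past 2-fold. Isg15, a ubiquitin-like modifier, had the most UMIs of the genes past 2-fold, 576 in the control and 1051 in the D-CAN tumor (log2 ratio 1.07, 0.92 to 1.22).

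Other effectors and sensors past 2-fold were Rsad2, AW112010, Ifi44, Xaf1 and Dhx58. Rsad2 had 4 UMIs in the control and 64 UMIs in the D-CAN tumor (log2 ratio 4.20, interval 2.77 to 6.12). AW112010, a transcript that translates from a non-canonical reading frame in macrophages, had 12 and 117 UMIs (3.49, 2.63 to 4.48). Ifi44 had 13 and 42 UMIs, the pro-apoptotic Xaf1 44 and 77 UMIs, and Dhx58, which encodes LGP2, 16 and 29 UMIs. Of the GTPases, Gbp2 had 18 and 62 UMIs (1.98, 1.21 to 2.83) and Gbp3 21 and 59 UMIs (1.69, 0.95 to 2.48). The same 5 cells held 49 of the 62 Gbp2 UMIs, 36 of the 59 Gbp3 UMIs, 55 of the 64 Rsad2 UMIs and 34 of the 42 Ifi44 UMIs. Outside the top cells Gbp2 stood at 1.61 CPM in the control and 1.60 CPM in the D-CAN tumor (log2 ratio -0.01, -1.20 to 1.16), and the GTPases together at 20.7 and 25.2 CPM (0.28, -0.01 to 0.57). AW112010 stood at 1.29 and 5.89 CPM there (2.19, 1.26 to 3.24). The transcription factors differed little, at 44.4 and 52.4 CPM together (log2 ratio 0.24, 0.04 to 0.44), and Irf1 was the only tested gene with a ratio below 0, at 17.4 CPM in the control and 15.4 CPM in the D-CAN tumor. Promoters were at hand for 12 of the 14 genes past 2-fold and held an ISRE match in 7, and for 13 of the other 19, with a match in 8.

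Leukocyte RNA was measured alongside. The 8 leukocyte genes (Ptprc, Lyz2, Cd74, Tyrobp, Cd3e, Cd79a, Fcer1g, Laptm5) summed to 30.7 CPM in the cancer-like cells of the control and 24.7 CPM in those of the D-CAN tumor, with UMIs of 7 and 6 of them, Cd79a at 0 in both and Cd3e at 0 in the D-CAN tumor. The 6 of these genes with at least 20 UMIs in myeloid-like cells reached 0.111% to 0.309% of the myeloid level in control cancer-like cells and 0.0797% to 0.348% in the D-CAN tumor. The listed genes with as many UMIs there, 38 and 37, reached a median of 5.20% of the myeloid level in the control and 14.6% in the D-CAN tumor. The same value was not taken over all genes, so these medians do not set the listed genes apart from other genes. Lyz2, Cd3e and Cd79a are also gate markers, and the gate kept out cells with as many markers of a leukocyte class as cancer markers. The leukocyte levels were thus partly limited by the gate. RNA from endothelial-like or fibroblast-like cells was not compared in this way. The cancer-like cells of the D-CAN tumor were also deeper, with a median of 18330 UMIs against 11445 UMIs.

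Few cells held much of the core signal. In the D-CAN tumor, the top 1% of cancer-like cells by core UMIs, 5 of 437 cells, held 675 of 2047 core UMIs (33.0%, interval 30.9 to 35.1) and 1.17% of all UMIs. In the control, 9 of 826 cells held 193 of 1060 core UMIs (18.2%, 15.9 to 20.7) and 1.60% of all UMIs. Cells were ranked by the core itself, so these shares are a description. At the other end, 194 of 437 D-CAN cells (44.4%) and 499 of 826 control cells (60.4%) had no core UMI, and 13 and 46 cells sufficed for 50% of the core UMIs. In myeloid-like cells the top 1% held 13.9% (12.0 to 16.01) in the D-CAN tumor and 14.5% (12.6 to 16.5) in the control, the latter overlapping the interval of the cancer-like cells. In fibroblast-like cells it held 17.8% (1 of 80 cells) and 19.95% (2 of 124), and in endothelial-like cells 29.8% (1 of 60) and 11.5% (1 of 89). Bst2 was spread more widely in cancer-like cells, its top 1% holding 8.29% of its UMIs in the D-CAN tumor and 9.13% in the control.

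The highest cell of the D-CAN tumor had 286 core UMIs among 15081 (18964 core CPM), 136 of them from Isg15, 36 from Rsad2 and 14 from Ifit1. The next had 163 of 10041 UMIs (16233 CPM), and the other 3 had 101, 67 and 58 core UMIs. The highest cell of the control had 47 of 17525 UMIs (2682 CPM), and the other 8 had 15 to 23. All 5 D-CAN cells thus lay above every control cell by core UMIs, a measure that also rises with depth. By core CPM this did not hold, since the D-CAN cell with 67 core UMIs among 30477 stood at 2198 CPM. They had 21 to 35 of the listed genes, 50 to 67 UMIs of cancer markers and 0 or 1 UMIs of the leukocyte genes. The highest D-CAN cell also had UMIs of 2 myeloid markers, which no other of the 5 had, and the top 1% without cells of that kind held 26.7% of the core UMIs.

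The ranking did not use the other 26 listed genes, and these were also high in the same cells. Summed, they stood at 5934 CPM in the 5 top D-CAN cells against 422 CPM in the remaining cells, and at 1121 CPM in the 9 top control cells against 343 CPM. Of those with at least 20 UMIs in the D-CAN tumor, 20 of 20 were at least 2-fold higher in the top cells, where 19.3% of 9814 genes were. In the control 10 of 15 were at least 2-fold higher and 1 was lower, where 9.67% and 24.3% of 9949 genes were. UMIs of the top cells counted toward the limit of 20 UMIs. Gbp2, Ifi44, Zbp1, Dhx58 and Gbp7 in the D-CAN tumor reached it only with them, as did Gbp3 and Gbp7 in the control. For these genes the direction was largely set by the limit, so the counts are a description. Of 21 genes of the pathway list, 10 were higher and 4 lower by 2-fold in the D-CAN top cells, where 19.3% and 29.7% of all genes were. In the control top cells 2 were higher and 7 lower, where 9.67% and 24.3% of all genes were. The control counts lay near those shares. The GTPases stood at 1716 CPM against 25.2 CPM in the D-CAN tumor and at 244 CPM against 20.7 CPM in the control. Gbp2 had 507 CPM in the top D-CAN cells and 1.60 CPM in the others, with UMIs in 5 of 5 cells. AW112010 had 713 CPM against 5.89 CPM, with UMIs in 4 of 5, whereas in the control it had no UMI in the 9 top cells. Bst2 had 1127 CPM against 225 CPM in the D-CAN tumor and 488 CPM against 179 CPM in the control. Cxcl10, an interferon-induced chemokine named after its values were seen, had 216 UMIs in 3 of the 5 cells, 187 of them in the highest, and 40 UMIs in all the other cells.

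The remaining genes were higher where the core was higher across all cancer-like cells. Without Bst2, members outside the core stood at 108 CPM in the 194 D-CAN cells with no core UMI, at 181 CPM in 195 cells under 500 core CPM, at 613 CPM in 36 cells from 500 to under 2000 core CPM, and at 3413 CPM in 12 cells at 2000 core CPM or more. The control gave 129 CPM in 499 cells, 179 CPM in 269, 411 CPM in 54 and 1829 CPM in 4 cells. Core and other genes share each cell's depth, so this is a description. Of the 12 D-CAN cells at 2000 core CPM or more, 1 had 42 leukocyte UMIs, and no other had 3 or more. Without cells that had 2 or more markers of another class, the 3413 CPM became 2712 CPM. The cell with 42 leukocyte UMIs was not left out by that rule.

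**Figure D3:**
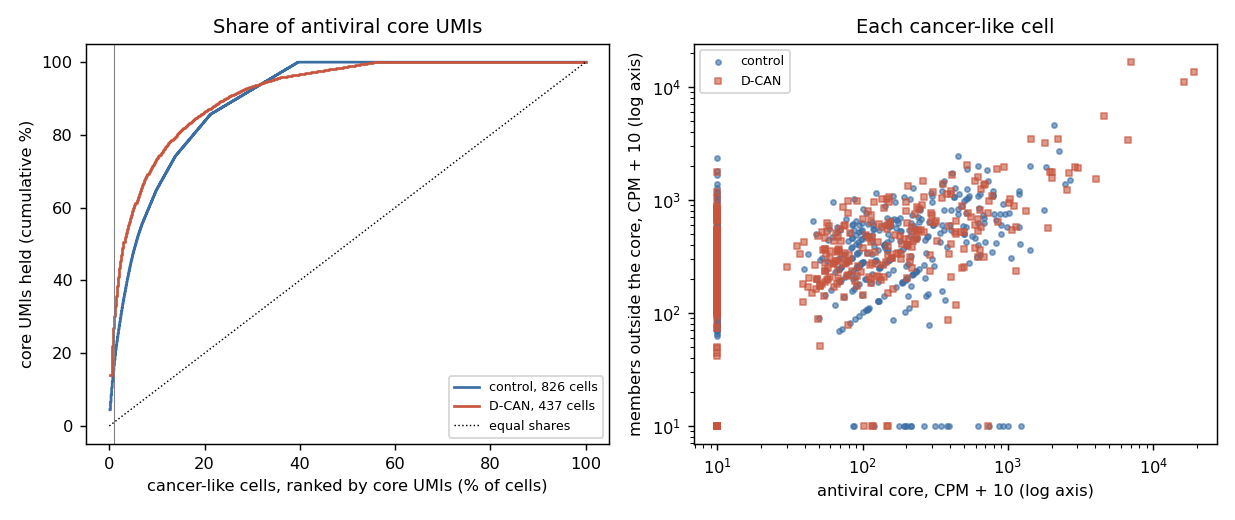
Left, cumulative share of core UMIs (%) over cancer-like cells ranked by core UMIs (% of cells), for the control (blue, 826 cells) and the D-CAN tumor (red, 437 cells), with a grey line at 1% and a dotted line for equal shares. Right, each cell by core CPM and by CPM of the other members, 10 added to both, on log axes. The cells farthest to the right are from the D-CAN tumor. Its cell with the most core UMIs has 18964 core CPM, against 2682 CPM in the control cell with the most core UMIs.

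At 1 depth for all cells, a larger share of cells in the D-CAN library was positive for the core. After thinning to 2000 UMIs, which left out 29 control and 11 D-CAN cells, 22 of 426 D-CAN cells (5.16%, interval 3.26 to 7.71) and 11 of 797 control cells (1.38%, 0.691 to 2.46) had at least 3 core UMIs. The thinning was drawn once, and cells of 1 library are not replicates of a treatment. No class in these tumors lacks these genes, so no background share can be given. Leaving out the top 1% of cells in each library brought the score to 436 CPM in the control and 590.0 CPM in the D-CAN tumor (log2 ratio 0.44, 0.38 to 0.50) and the core to 93.1 and 168 CPM (0.86, 0.73 to 0.98). Then 4 of 28 tested members (Ifit1, Oas3, Oasl1 and AW112010) were at least 2-fold higher, where 0.751% of 10659 genes were, in place of 14 of 33.

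The other classes of the tumor differed little between treatments. In myeloid-like cells, 0 of 39 tested members were 2-fold higher and 0 were 2-fold lower, where 1.35% and 2.18% of all tested genes were. The log2 ratio of the score was 0.11 (0.05 to 0.17), and without Ifi27l2a it was -0.08 (-0.15 to -0.00). Fibroblast-like cells also had 0 of 31 in either direction (2.36% and 2.84% of all genes) and a log2 ratio of 0.04 (-0.06 to 0.14), with their core at 795 CPM in the control and 964 CPM in the D-CAN tumor (0.28, 0.10 to 0.46). In endothelial-like cells, 1 of 29 was higher and 2 were lower (4.51% and 3.48% of all genes). Rsad2 had 52 UMIs in the control and 16 UMIs in the D-CAN tumor, Ifit3 19 and 7 UMIs, and Ifi27l2a 14 and 32 UMIs. Rsad2 and Ifit3 thus lay lower in D-CAN endothelial-like cells and higher in D-CAN cancer-like cells. The endothelial score had a log2 ratio of 0.12 with an interval from -0.01 to 0.25 that spans 0. A single cell held 29.8% of the core UMIs of the 60 D-CAN endothelial-like cells, and the leukocyte genes stood at 97.0 CPM in the control and 268 CPM in the D-CAN tumor.

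In SAT, the listed genes were lower in the D-CAN library in 5 of the 6 classes compared. The largest differences were in stromal and myeloid cells. Fibroblast-like cells, the class that holds ASC, had a log2 ratio of -1.26 (-1.39 to -1.13), with their core at 817 CPM in the control and 176 CPM in the D-CAN library (-2.21, -2.59 to -1.85). Of 27 tested members, 15 were at least 2-fold lower and 1 was higher, where 6.18% and 4.36% of all tested genes were. Myeloid-like cells had a log2 ratio of -1.51 (-1.68 to -1.34), with 10 of 16 members lower and 0 higher (9.06% and 6.84% of all genes). Of the 53 control myeloid-like cells, 1 held 14.7% of the member UMIs and 3 held 34.9%, and of the 29 D-CAN cells 1 held 13.0%. Their median depth was 1440 UMIs in the control and 4573 UMIs in the D-CAN library. Mural-like cells had a log2 ratio of -1.62 (-1.96 to -1.29), with 3 of 5 members lower and 0 higher (3.53% and 8.51% of all genes). This value rests on few cells, since 1 of the 30 control cells held 33.3% of the member UMIs and 2 held 59.1%. The ratio was -0.43 without cells that had 2 or more markers of another class, and the leukocyte genes stood at 175 CPM in the control and 17.6 CPM in the D-CAN library.

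In fibroblast-like cells, the lower genes were led by the core. Isg15 had 116 UMIs in the control and 10 UMIs in the D-CAN library (240.4 and 24.2 CPM, log2 ratio -3.31, interval -4.41 to -2.38). Irf7, the factor that amplifies interferon production, had 104 and 10 UMIs (216 and 24.2 CPM, log2 ratio -3.16, -4.26 to -2.22). Oasl2 had 36 and 5 UMIs, Usp18 25 and 7, Ifit1 36 and 10, and Ifit3 24 and 10. Isg15, Irf7, Oasl2, Usp18, Ifit1 and Ifit3 thus had under 20 UMIs in the D-CAN library and met the limit of 20 UMIs only with those of the control. Bst2 had 146 and 30 UMIs (303 and 72.5 CPM, log2 ratio -2.06, -2.68 to -1.49). Ifi27l2a had 769 and 221 UMIs (1594 and 534 CPM), and without it the log2 ratio of the score was -1.07 (-1.24 to -0.91). The remaining genes lower by 2-fold were Rtp4, Ifih1, Xaf1, Trim30a, Zbp1, Gbp7 and Iigp1. AW112010 went the other way, with 46 and 81 UMIs (95.3 and 196 CPM, log2 ratio 1.04, 0.50 to 1.59). Irf1 did not pass, at 66.3 and 96.7 CPM.

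The difference was present in both parts of this class. Fibroblast-like cells with a UMI of Pi16 or Dpp4, markers of interstitial progenitors, had a score of 2933 CPM (123 cells, interval 2737 to 3140.0) in the control and 1740.4 CPM (35 cells, 1582 to 1911) in the D-CAN library. Cells without had 5146 CPM (136 cells, 4837 to 5470.4) and 1396 CPM (39 cells, 1219 to 1592). The control cells were shallower, with a median of 941 UMIs against 5586 UMIs, and a Pi16 or Dpp4 UMI is more easily missed in such cells. Among cells with 2000 UMIs or more the values were 3091 and 1755 CPM for cells with these UMIs and 4725 and 1454 CPM for cells without. Leukocyte RNA also differed between the libraries. In fibroblast-like cells the 8 leukocyte genes summed to 504 CPM in the control, with UMIs of all 8, and to 26.6 CPM in the D-CAN library, with Tyrobp, Cd3e, Cd79a and Laptm5 at 0. Their part in the difference was not tested. In the same control library, Isg15 stood at 12.8 CPM in B-like, 51.3 CPM in T or NK-like, 199.8 CPM in myeloid-like and 545 CPM in neutrophil-like cells. Irf7 stood at 35.1, 37.8, 311 and 77.8 CPM in these classes. The D-CAN matrix of SAT was written by Cell Ranger 3.0.2 and the others by 3.1.0, which cannot be told apart from the treatment.

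In SAT myeloid-like cells, IFIT and ISG15 genes were near the counting limit in the D-CAN library. The IFIT family had 43 UMIs in 53 control cells and 3 UMIs in 29 D-CAN cells, and Isg15 had 36 and 2 UMIs (log2 ratio -3.98, interval -7.08 to -2.02). Rtp4 had 28 and 1 UMIs (-4.62, -9.97 to -2.02), and Ifit2 had 24 and 1 (-4.40, -9.76 to -1.78). Also lower were Oasl2 with 26 and 4 UMIs, Ifi47 with 18 and 3, and Zbp1 with 27 and 7. Irf7 had 56 and 9 UMIs (311 and 56.9 CPM, log2 ratio -2.45, -3.65 to -1.42), Parp14 40 and 9, and Bst2 50 and 15. Each of these lower genes had under 20 UMIs in the D-CAN library and met the limit of 20 UMIs only with those of the control. Ifi27l2a had 563 and 141 UMIs (3125 and 891 CPM, log2 ratio -1.81, -2.09 to -1.54). The GTPases differed less, at 633 and 417 CPM together (-0.60, -1.06 to -0.15). The same cells differed in other genes too, the antigen-presentation gene Cd74 standing at 4624 and 8955 CPM and the lysozyme gene Lyz2 at 23810 and 17942 CPM, and the part of such differences in the result was not tested.

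In the lymphoid classes, Ifi27l2a had the most UMIs of the genes past 2-fold. T or NK-like cells had a log2 ratio of -0.64 (-0.70 to -0.59), with 4 of 34 members lower and 0 higher, where 1.67% and 1.43% of all genes were. These were Ifi27l2a with 1004 and 453 CPM (log2 ratio -1.15, -1.25 to -1.05), Usp18, Ifih1 and Rtp4, and without Ifi27l2a the ratio was -0.40 (-0.47 to -0.33). B-like cells had a log2 ratio of -0.73 (-0.82 to -0.64), with 3 of 26 lower and 0 higher (2.56% and 1.32% of all genes). Ifi27l2a stood at 683 and 253 CPM there (log2 ratio -1.43, -1.59 to -1.27), beside Igtp and Dhx58, and without it the ratio was -0.32 (-0.43 to -0.20). Endothelial-like cells had a log2 ratio of 0.01 (-0.06 to 0.08). Their 8 leukocyte genes stood at 454 CPM in the control and 129 CPM in the D-CAN library, and the part of this difference was not tested. Of 33 members, 1 was lower and 0 were higher (2.22% and 1.87% of all genes), Ifit1 with 35 and 12 UMIs. Ifi27l2a stood at 158 and 162 CPM in these cells. In mural-like cells the genes past 2-fold were Ifi27l2a (31 and 2 UMIs), Bst2 (13 and 8) and Isg15 (15 and 14).

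**Figure D4:**
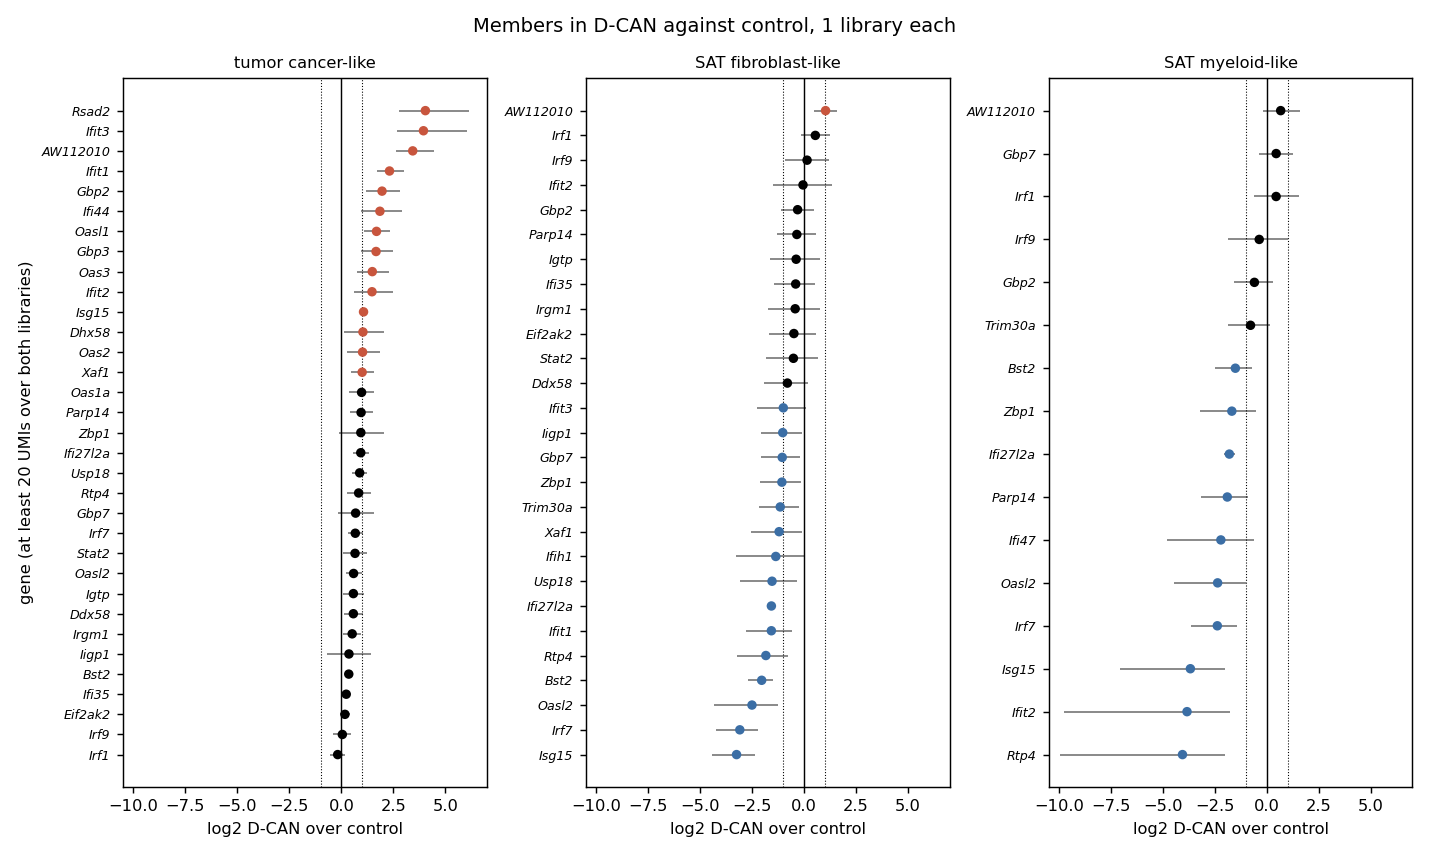
Log2 ratio of D-CAN over control, with 0.5 UMI added, for each member with at least 20 UMIs in tumor cancer-like, SAT fibroblast-like and SAT myeloid-like cells; grey bars are exact 95% intervals from counts, dotted lines mark 2-fold, and red and blue points are past it. In cancer-like cells 14 points lie right of the line, and in SAT fibroblast-like and myeloid-like cells 15 and 10 lie left of it.

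Tumor and SAT were compared in the 3 classes with at least 20 cells in all 4 libraries, by edgeR's quasi-likelihood test on summed UMIs with treatment as a term, which leaves 1 residual degree of freedom. Adjusted p-values are over all genes tested in a class. With 1 library per tissue and treatment, the spread in this test is how far the D-CAN difference differed between the tissues, shared across genes. It is not a spread between like libraries. Nothing says that the libraries are separate animals, so these p-values do not measure variation between mice. In endothelial-like cells, of 38 tested members, 7 antiviral genes and regulators were higher in tumors and 1 was lower, where 4.15% and 3.83% of all genes were. The median log2 ratio of tumor over SAT was 0.27 over the members and -0.05 over all genes.

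Zbp1, a sensor of Z-form nucleic acid, had 58.2 and 90.9 CPM in the endothelial-like cells of the control and D-CAN tumors and 6.31 and 5.89 CPM in those of the SAT libraries (log2 ratio 3.53, SE 0.46, edgeR adjusted p = 0.00372). Ifit1 had 109 and 147 CPM in tumors and 31.6 and 11.8 CPM in SAT (2.54, SE 0.43, edgeR adjusted p = 0.0109). Irf7 had 182 and 247 CPM against 48.7 and 40.3 CPM (2.24, SE 0.26, edgeR adjusted p = 0.00244). Isg15 had 361 and 355 CPM against 171 and 138 CPM (1.20, SE 0.19, edgeR adjusted p = 0.00803). Oasl2 (log2 ratio 1.57), Ifi44 (1.49) and Ifit2 (1.27) were also higher in tumors. In all 7, each tumor library lay above each SAT library, but they were called on these same libraries, so this adds no support. The leukocyte genes stood at 97.0 and 268 CPM in the tumor libraries and at 454 and 129 CPM in the SAT libraries, ranges that overlap. Irf1, which responds strongly to interferon gamma, was lower in tumors, with 73.7 and 47.6 CPM against 173 and 239.7 CPM (-1.74, SE 0.31, edgeR adjusted p = 0.0134).

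In fibroblast-like cells, 3 of 32 members were higher in tumors and 2 were lower, where 8.30% and 9.16% of all genes were, a share near the background. Iigp1 had 269.5 and 248 CPM in tumors and 70.5 and 33.8 CPM in SAT (log2 ratio 2.25, SE 0.30, edgeR adjusted p = 0.000138). Ifi44 had 47.6 and 74.3 CPM against 18.7 and 0 CPM (edgeR adjusted p = 0.0159), and Zbp1 113 and 92.8 CPM against 72.5 and 33.8 CPM (edgeR adjusted p = 0.0489). AW112010 was lower in tumors, with 23.8 and 23.2 CPM against 95.3 and 196 CPM (-2.69, SE 0.33, edgeR adjusted p = 7.33e-05), as was Irf1 with 39.6 and 40.2 CPM against 66.3 and 96.7 CPM (edgeR adjusted p = 0.0182). The calls changed when a library was left out. Such fits had no treatment term and 1 library in 1 of the tissues, so only effect sizes are given here. The median log2 ratio over the members was 0.32 with all 4 libraries, 0.86 without the SAT control and -0.17 without the SAT D-CAN library. It was 0.21 without the control tumor and 0.21 without the D-CAN tumor. The leukocyte genes stood at 57.5 and 10.8 CPM in tumors and at 504 and 26.6 CPM in SAT, and their part was not tested.

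In myeloid-like cells, 1 of 39 members was higher in tumors and 2 were lower, against 2.26% and 2.19% of all genes. Rsad2 had 149 and 137 CPM in tumors and 27.8 and 25.3 CPM in SAT (log2 ratio 2.47, SE 0.46, edgeR adjusted p = 0.000965). The SAT values rest on 5 and 4 UMIs. Gbp7 had 55.6 and 36.1 CPM against 139 and 189.6 CPM (-1.79, SE 0.37, edgeR adjusted p = 0.00323), and Gbp2 51.9 and 40.9 CPM against 155 and 101 CPM (edgeR adjusted p = 0.0253). With classes taken from clusters 15 members were higher in tumors, where 7.55% of all genes were. The calls also changed when a library was left out, in fits with no treatment term. The median log2 ratio over the members was 0.35 with all 4 libraries, 1.58 without the SAT control and -0.44 without the SAT D-CAN library. It was 0.19 without the control tumor and 0.31 without the D-CAN tumor. Irf1 thus was called lower in tumors in endothelial-like and fibroblast-like cells, where the counts of lower members were near the share over all genes. In myeloid-like cells it did not pass.

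**Figure D5:**
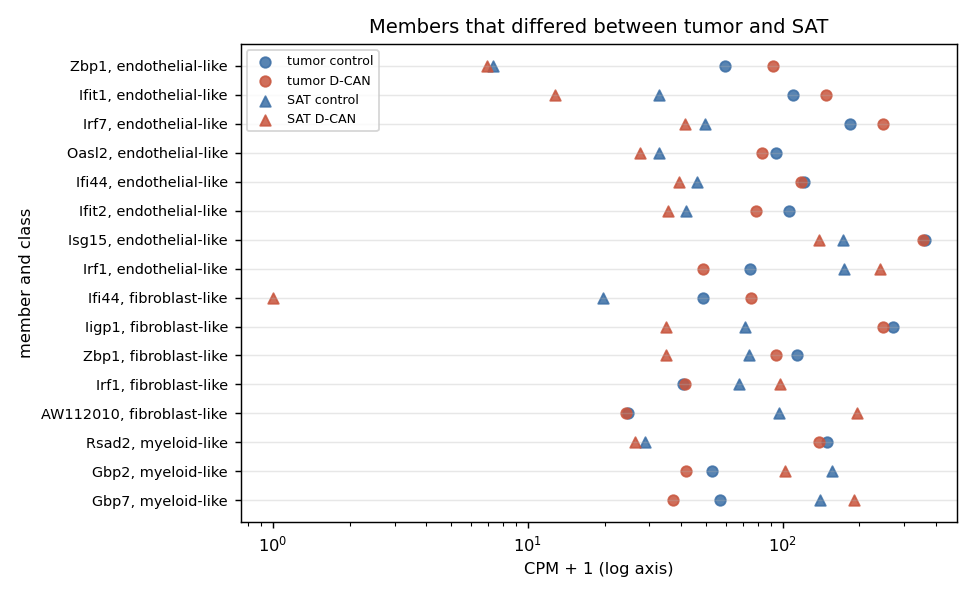
CPM + 1 (log axis) of each member that differed between tumor and SAT by edgeR at an adjusted p under 0.05, by class, with circles for tumor and triangles for SAT libraries, control in blue and D-CAN in red. In each row the circles do not overlap the triangles, and tumors are higher in 11 of 16 rows. The rows were picked by a test on these same libraries, so the separation adds no support.

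The interferons themselves were scarce. Of 9 ligand genes, Ifna2, Ifna4, Ifna5, Ifne, Ifnl2 and Ifnl3 had no UMI in any library. Ifnb1 was found only in tumors, with 7 UMIs in 3 cells of the control, all of them in myeloid-like cells, and 7 UMIs in 3 cells of the D-CAN tumor, 6 of them in myeloid-like cells. Myeloid-like cells numbered 547 and 340 in the control and D-CAN tumors and only 53 and 29 in the SAT libraries. The 0 UMIs in SAT therefore do not compare Ifnb1 levels per cell between the tissues. Ifng had 331 UMIs in the SAT control and 277 UMIs in the SAT D-CAN library, 238 and 230 of them in T or NK-like cells. The control and D-CAN tumors had 16 and 3 Ifng UMIs, 5 and 2 of them in T or NK-like cells. The tumors held only 9 and 19 such cells, against 694 and 730 in the SAT libraries. These raw counts therefore do not compare Ifng levels per cell between the tissues. Ifnk had 4 to 10 UMIs in each library.

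Other genes of the pathway, 36 in all with the ligands, were listed separately. In cancer-like cells, 23 had enough UMIs and 0 were past 2-fold in either direction, where 0.888% of all genes were higher and 0.879% lower. A count of 0 is near that share. In tumor myeloid-like cells 0 of 25 were past 2-fold, where 1.35% of all genes were higher and 2.18% lower. In SAT fibroblast-like cells, 4 of 16 were lower in the D-CAN library and 2 were higher, where 6.18% and 4.36% of all genes were. Among the lower genes, Irf8, a factor of myeloid and lymphoid cells, had 39 and 4 UMIs, Jak2 23 and 9, and Tmem173, which encodes STING, 17 and 5. Socs3, a feedback inhibitor of cytokine signaling, had 71 and 166 UMIs (147 and 401 CPM, log2 ratio 1.45, interval 1.04 to 1.87), and Irf3 9 and 17 UMIs. In tumors, Irf8 was lower in the D-CAN endothelial-like cells (55 and 16 UMIs), as was Irf3 (16 and 6), and Jak2, the kinase of the gamma receptor, was higher in fibroblast-like cells (10 and 30). These were 2 of 12 tested genes in endothelial-like cells (3.48% of all genes lower) and 1 of 14 in fibroblast-like cells (2.36% higher). The remaining genes past 2-fold were all lower in D-CAN cells of SAT. They were Ifnar2 in myeloid-like (1 of 14), Mavs in T or NK-like (1 of 22), Tlr7 in B-like (1 of 22) and Irf8 in endothelial-like cells (1 of 20). Of all genes, 9.06%, 1.67%, 2.56% and 2.22% were lower in these classes. Between tissues, the receptor chain Ifngr1 was lower in tumor myeloid-like cells (120 and 134 CPM against 228 and 411 CPM, edgeR adjusted p = 0.0208) and fibroblast-like cells (77.3 and 111 CPM against 139 and 254 CPM, edgeR adjusted p = 0.00840). Of 25 tested pathway genes in myeloid-like cells 2 were lower in tumors (2.19% of all genes), Ifngr1 and Irf8, and of 18 in fibroblast-like cells 4 were (9.16% of all genes), Ifngr1, Il10rb, Socs3 and Irf8, the last with overlapping libraries. Of 21 in endothelial-like cells, Irf8 was higher in tumors (213 and 69.2 CPM against 39.7 and 15.7 CPM, edgeR adjusted p = 0.00263) and Socs3 was lower (128 and 73.6 CPM against 254 and 455 CPM, edgeR adjusted p = 0.0219). Of all genes, 4.15% were higher and 3.83% lower there.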

How the data were processed

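The authors made 10x Chromium 3′ libraries, processed the reads with Cell Ranger 3.1.0 and STAR (genome mm10, annotation Ensembl 93), and deposited tables of raw UMI counts with no normalization. The SAT D-CAN matrix names Cell Ranger 3.0.2 in its header. The counts were used as deposited, with no doublet caller and no mitochondrial filter.

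Cells were gated with 9 lists of 8 markers, and classes with at least 20 cells were reported. UMIs were summed per class and library. D-CAN over control is a ratio of 2 libraries with an exact conditional binomial interval and no test. Genes whose UMIs in the pair of libraries summed to 20 or more were called at 2-fold, after adding 0.5 UMI to each. A gene with few UMIs in 1 library was thus tested mainly when it was higher in the other, also among all genes. Tumor and SAT were compared with edgeR 4.0.16 (glmQLFit, TMM, Benjamini-Hochberg, threshold 0.05) in R 4.3.3, with DESeq2 1.42.0 as an alternative. Each test script was tested on simulated data. Python 3.11.15, scipy 1.17.1 and scanpy 1.11.5 were used for the rest, including clusters made without the listed genes. Shares were taken with exact Clopper-Pearson intervals, and the limit of a count of 0 is 3 counts.

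Named genes are each member past a call, the 5 highest members of a class and pathway genes past a call. Alternatives chosen after seeing the data were a gate without the plasmacytoid dendritic list, cells with 2000 UMIs or more, and cancer-like cells without their top 1%. The listed genes, the core, the marker lists and the pathway lists were chosen with earlier results of these data known. Overlapping or near-identical genes, such as Ifit3 with Ifit3b and the Gbp genes, can share reads, and how such reads were counted was not examined. Values of 1 gene of the pathway list are not reported here.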

Additional observations from a re-analysis of the deposited data

Results flagged for a closer look

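In 2 of the 3 classes found in both tissues, the D-CAN score divided by the control score gave a log2 value above 0 in tumor and below 0 in SAT. In myeloid-like cells the log2 ratio of the score was 0.11 in tumors and -1.51 in SAT, a difference of 1.62. In fibroblast-like cells it was 0.04 and -1.26, a difference of 1.30, and for the core alone 0.28 and -2.21, a difference of 2.49. The tumor value of the fibroblast-like score has an interval that spans 0 (-0.06 to 0.14), and that of the myeloid-like score was -0.078 without Ifi27l2a, so an opposite direction in tumors is not shown for these scores. With 1 library of each kind the difference was not tested.

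Cells that met no gate also held the listed genes, and no comparison made with the original gate uses them. Their score was 600.2 CPM in the control tumor, 677 CPM in the D-CAN tumor, 2362 CPM in the SAT control and 1914 CPM in the SAT D-CAN library. Classes from clusters, and the gate without the plasmacytoid dendritic list, took in some of these cells. Cancer-like cells of the control and D-CAN tumors numbered 826 and 437 with the original gate. They numbered 1820 and 871 with clusters and 998 and 547 without that list.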

How the results depend on the processing

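With DESeq2, members higher and lower in tumor than in SAT numbered 0 and 0 in myeloid-like cells (0.465% and 0.526%). They numbered 4 and 1 in endothelial-like (2.01% and 1.58%) and 1 and 1 in fibroblast-like cells (1.68% and 1.96%). With edgeR they were 1 and 2 (2.26% and 2.19%), 7 and 1 (4.15% and 3.83%), and 3 and 2 (8.30% and 9.16%). Percentages in brackets here are shares of all genes tested that were called in the same class and direction. At an unadjusted p under 0.05, DESeq2 called 1 and 2 in myeloid-like cells. With genes of at least 1 UMI, 2 were higher in myeloid-like (2.10%) and 5 in fibroblast-like cells (5.64%). In endothelial-like cells 2 were then lower (4.16%), and 2 were lower there with no treatment term (5.83%). With classes from clusters, 15 were higher in myeloid-like (7.55%), 11 in endothelial-like (8.45%) and 1 in fibroblast-like cells (5.60%), and 3 were lower in endothelial-like cells (8.82%). With at least 3 markers and a lead of 3, 6 were higher in fibroblast-like (9.51%) and 3 lower in endothelial-like cells (7.24%). Without cells that had 2 markers of another class, 1 was higher and 1 lower in fibroblast-like cells (3.38% and 3.63%). Under that setting 0 were lower in myeloid-like (1.43%) and 3 in endothelial-like cells (7.41%). With cells of at most 20% mitochondrial UMIs, 4 were higher and 0 lower in endothelial-like cells and 1 was higher in fibroblast-like cells. Without the plasmacytoid dendritic list, 0 were lower in myeloid-like (1.08%) and 2 in endothelial-like cells (4.90%) and 5 were higher in fibroblast-like cells (9.13%). With cells of 2000 UMIs or more the last 2 counts were the same (6.29% and 8.28%). Fits without 1 library had no treatment term and 1 library in 1 of the tissues. Their counts, which follow without shares over all genes, only describe how the calls moved. They do not set the listed genes apart from other genes. Leaving out 1 library at a time gave 1 to 14 higher and 0 to 4 lower in myeloid-like, 6 to 10 and 1 to 3 in endothelial-like, and 0 to 12 and 0 to 2 in fibroblast-like cells. The lower endothelial count was 3 without the D-CAN tumor and 2 without the SAT control.

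For the score in cancer-like cells (log2 ratio 0.65), the mean of the cells' own CPM gave 0.86, leaving out Bst2 0.82, the stricter gate 0.73, clusters 0.47, no mixed cells 0.53, and no top 1% of cells 0.44. In tumor myeloid-like cells the score reversed to -0.078 without Ifi27l2a, and was 0.19 by mean of cells and 0.029 with the stricter gate. It was -0.13 by mean of cells in tumor endothelial-like cells and -0.19 without mixed cells in tumor fibroblast-like cells, where the original intervals spanned 0. In SAT, leaving out Ifi27l2a gave -1.28 in myeloid-like, -0.40 in T or NK-like, -0.32 in B-like and -1.07 in fibroblast-like cells. Clusters gave -1.15 in myeloid-like, -0.58 in T or NK-like and -1.09 in mural-like cells, cells without markers of another class -0.57 in T or NK-like and -0.43 in mural-like cells, and the mean of cells -1.45 in fibroblast-like cells. The 14 members past 2-fold in cancer-like cells became 24 at 1.5-fold, 8 with clusters and 9 without mixed cells. Without the top 1% of cells they became 4, where 0.751% of all genes were higher. The 10 lower members of SAT myeloid-like cells became 3 at 50 UMIs. The 15 of SAT fibroblast-like cells became 6 at 50 UMIs and 9 with cells of 2000 UMIs or more. Except without the top 1% of cells, shares over all genes were not taken for these counts. Such counts only describe how the calls moved. The top 1% share of core UMIs was 21.2% in the control and 37.0% in the D-CAN tumor after thinning, 48.1% and 59.8% for the top 5%, and 11.3% and 26.6% with the stricter gate. It was 21.6% in the control with clusters, and in the D-CAN tumor 26.7% without mixed cells and 30.6% under the mitochondrial limit. Cells positive for the core in the control and D-CAN tumors were 0.376% and 2.11% at 5 core UMIs and 0.365% and 2.31% at 1000 UMIs. They were 1.36% (interval 0.835 to 2.10) and 2.96% (1.89 to 4.41) with clusters. With the stricter gate they were 1.05% (0.128 to 3.75) and 5.13% (1.90 to 10.8). The last 2 pairs of intervals overlap, as do those at 5 core UMIs, under the mitochondrial limit and without the plasmacytoid dendritic list. The causes of these shifts were not tested.

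The stricter gate and the limit of 2000 UMIs were not run for the tissue test in myeloid-like cells, since a library then held under 20 cells. The treatment term already sets tumor beside SAT within each treatment. Beyond that term, no paired analysis was possible because the labels number no replicates and each tissue and treatment had 1 library.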
